A study of Caenorhabditis elegans with 2 samples.

Results

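The genes hsp-70, F44E5.4, F44E5.5, F08H9.3 and F08H9.4 were followed through every peak list of an HSF-1 chromatin immunoprecipitation experiment in Caenorhabditis elegans. They are 5 of 19973 nuclear protein-coding genes and were grouped as inducible HSP70 genes, with earlier results of these data known. A peak was assigned to a gene when its summit lay between 1000 bp upstream and 200 bp downstream of an annotated transcript start, in a window called the promoter window here. By this rule 3 of the 2935 pooled peaks belonged to the 5 genes, since F44E5.4 and F44E5.5 share a peak. The worms were of strain RW12254, with the genotype st12254[hsf-1::TY1::EGFP::3xFLAG] I, in which an enhanced green fluorescent protein and epitope tags were inserted at hsf-1 by CRISPR, and they were collected whole as young adults at 63 h after synchronisation at the starved L1 stage. An anti-GFP antibody was used to precipitate the tagged HSF-1 in 2 biological replicates of this group. The labels name no heat treatment and no second condition, so induction was not measured and the binding described is that of worms with no stated heat treatment. Whole animals were used, so a strong site in few cells and a weak site in many cannot be told apart.

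HSF-1 is the transcription factor of the heat shock response. It binds DNA as a trimer at heat shock elements, which are runs of short inverted units, GAA and its complement TTC, placed at a fixed spacing. HSP70 proteins are ATP-driven chaperones that bind unfolded stretches of other proteins, and their cytosolic inducible forms are among the classic targets of the factor. Small heat shock proteins are shorter, work without ATP and hold unfolded clients until HSP70 can refold them.

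The annotation did not bear out the grouping for F08H9.3 and F08H9.4. The coding sequences of hsp-70, F44E5.4 and F44E5.5 hold 643, 645 and 645 codons, and RefSeq describes all 3 products as HSP70 proteins. Those of F08H9.3 and F08H9.4 hold 147 codons each. RefSeq lists these genes as hsp-16.20 and hsp-16.21 and their products as SHSP domain-containing proteins. Identity of coding sequences is given over the whole alignment, with gap positions counted as not identical. F08H9.4 was 66.5% identical to hsp-16.1 and F08H9.3 was 60.4% identical to it, while the F08H9 genes were 61.2% identical to each other. The 5 genes are therefore described below as 3 HSP70 genes and 2 small heat shock protein genes. Among the HSP70 genes, F44E5.4 and F44E5.5 had identical coding sequences, with 1935 of 1935 bases the same. The sequence of hsp-70 was 80.3% identical to theirs and 65.1% identical to that of hsp-1, the constitutive cytosolic HSP70 gene.

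The sequence between F44E5.4 and F44E5.5 carried the largest set of elements and the strongest peak of the 5 genes, and is shown first. The genes point away from each other on chromosome II, F44E5.4 on the minus strand at 11757107 to 11759311 and F44E5.5 on the plus strand at 11759662 to 11761861, with 350 bases between their starts. Within these bases lie 4 runs of alternating units with 2 bases between neighbouring units. They are printed from the plus strand of the RefSeq WBcel235 genome, the assembly called ce11 in the files, with the units in capitals and in order from F44E5.4 to F44E5.5.
Run 1, chrII:11759359-11759381: TTCtaGAAgcTTCtgGAAtaTTC
Run 2, chrII:11759431-11759453: TTCgaGAAcgTTCtaGAAccTTC
Run 3, chrII:11759530-11759542: GAAtgTTCgaGAA
Run 4, chrII:11759582-11759604: GAAtaTTCcaGAAgcTTCtaGAA
Runs 1, 2 and 4 have 5 units and run 3 has 3 units, which makes 18 units in all. Run 4 is the exact reverse complement of run 1. Each run of 5 units holds 3 overlapping elements of 3 units, so the sequence between the starts holds 10 such elements. The runs are separated by 49, 76 and 39 bases. Their arrangement can be read in the 300 bases around them, chrII:11759332-11759631, printed on the same strand with the same capitals.
F44E5.4 to F44E5.5: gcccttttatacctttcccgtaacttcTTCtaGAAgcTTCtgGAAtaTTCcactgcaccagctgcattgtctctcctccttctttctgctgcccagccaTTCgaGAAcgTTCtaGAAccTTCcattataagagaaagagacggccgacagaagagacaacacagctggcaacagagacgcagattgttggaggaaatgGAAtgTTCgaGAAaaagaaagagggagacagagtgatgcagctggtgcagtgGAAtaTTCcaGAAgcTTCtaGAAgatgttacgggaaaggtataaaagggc
The small heat shock protein genes are shown for contrast. Without mismatch, the longest run in the 300 bases upstream of F08H9.3 and of F08H9.4 was a pair of units, printed within 30 bases of the minus strand. With 1 mismatch allowed, F08H9.4 had 1 element of 3 units in those 300 bases and F08H9.3 had 0, and 22.4% of coding genes had such an element there. The genes hsp-16.41 and hsp-16.2 also code for small heat shock proteins and point away from each other. A different element of 3 units, within 100 bp upstream of the hsp-16.2 start, is not printed. The run of 3 units within 100 bp of the summit of their shared peak is given beside them on the plus strand.
F08H9.3, chrV:14463476-14463505: ctgctttgaagTTCgaGAAagagaaatgtg
F08H9.4, chrV:14464622-14464651: tcactgatgccTTCtaGAAttctccagcag
hsp-16.41 and hsp-16.2, chrV:1805169-1805181: TTCtaGAAcaTTC

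Of the 5 genes, 4 had a promoter peak in the pooled thresholded list, where 7.63% of all coding genes had one. The same 4 had one in the conservative list, against 7.11% of coding genes. In the thresholded list of replicate 1 there were 3, against 3.83%, and in that of replicate 2 there were 4, against 5.29%. F44E5.4, F44E5.5 and hsp-70 had a peak in all 4 thresholded lists. F08H9.3 had none in the list of replicate 1, and F08H9.4 had none in any of the 4. F44E5.4 and F44E5.5 count here as 2 genes with a single peak. The genes were chosen with earlier results of these data known and there is 1 group of samples, so no test was made and the counts are descriptions.

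The 4 loci fell into a wide range of signal, the peak caller's value for the height of a peak, which was not scaled between lists. At F44E5.4 and F44E5.5 the pooled signal was 6602, with 3640 for replicate 1 and 2970 for replicate 2. At hsp-70 these values were 278.6, 137.4 and 148.1. At F08H9.3 they were 101.3, 40.4 and 51.6. The order was the same in both replicates and in the pooled list, with the F44E5 pair far above the others. Its signal was 23.7 times that of hsp-70 in the pooled list, 26.5 times in replicate 1 and 20.1 times in replicate 2. The signal of hsp-70 was in turn 2.75, 3.40 and 2.87 times that of F08H9.3.

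**Figure D1:**
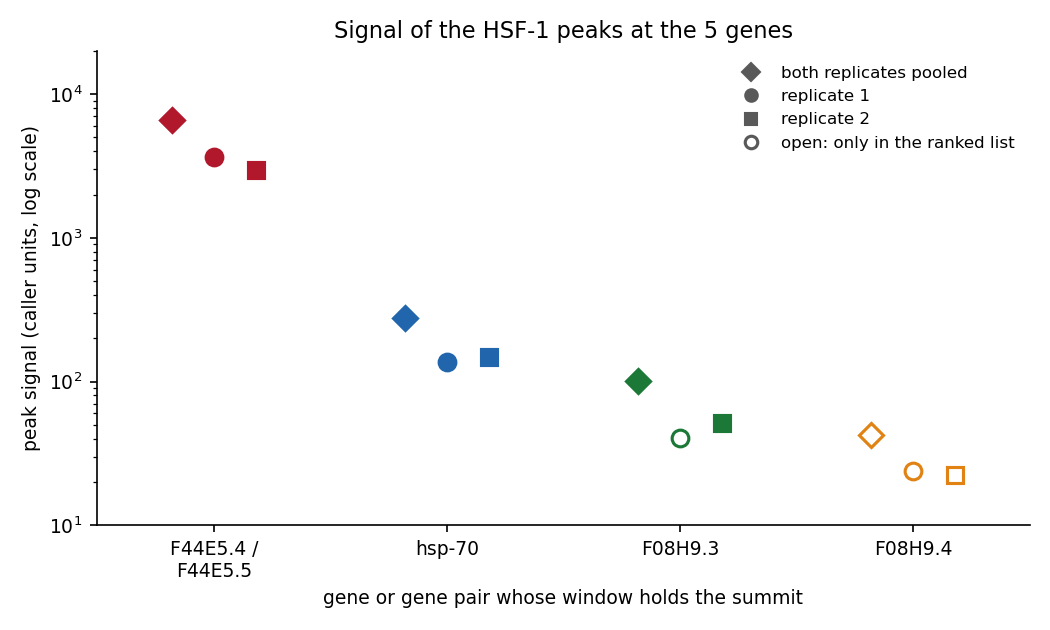
Peak signal in the peak caller's units, on a log axis, for each locus in the pooled analysis (diamonds), replicate 1 (circles) and replicate 2 (squares). Open symbols are peaks found in the ranked list alone. The F44E5 pair lies between 2970 and 6602, hsp-70 between 137.4 and 278.6, F08H9.3 between 40.4 and 101.3, and F08H9.4 between 22.3 and 42.8.

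The shared peak of F44E5.4 and F44E5.5 spanned chrII:11759232-11759743, 512 bp, and its summit at 11759469 was 158 bp from the F44E5.4 start and 193 bp from that of F44E5.5, upstream of both. It ranked 3 of all 2935 pooled peaks by signal and 1 of the 1338 pooled peaks in promoter windows. In replicate 1 it ranked 1 of 1217 thresholded peaks and in replicate 2 it ranked 5 of 1877. The irreproducible discovery rate (IDR) is low for a peak that ranks consistently high in the peak sets compared. For this peak it was 1e-05 in all 4 ranked lists. The summits of the replicates lay 1 bp apart. The next promoter peaks by pooled signal were those of dnj-13 and F54D5.9 at 6173 and of hsp-110 and rpn-3 at 4697. The dnj-13 peak had 2754 in replicate 1, below the F44E5 pair, and 3408 in replicate 2, above it, so the first place was not the same in both replicates. The summit was 17.5 bp from the midpoint between the starts, on the side of F44E5.4, and both starts lay inside the peak. The data give no way to divide the signal between the genes.

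The summit lay between runs 2 and 3. Run centres were placed 99 and 27 bp from the summit toward F44E5.4 and 67 and 124 bp toward F44E5.5. Counted from the F44E5.4 start, the centres were 59, 131, 225 and 282 bp upstream, and from the F44E5.5 start they were 69, 126, 220 and 292 bp upstream. From either gene the nearest run was one of the runs of 5 units. Centre-to-centre distances between neighbouring runs were 72, 94 and 57 bp. Elements of 3 units occur in 7.68% of the promoter windows of all coding genes, and in 1.92% of the 300 bp stretches upstream of the first start. Only 3 coding genes, or 0.0150%, had the 10 elements of F44E5.4 or more in those 300 bp, and 27 genes had as many in the whole window. A run of 5 units was found within 300 bp upstream of 10 coding genes, of which 8 had a pooled promoter peak, F44E5.4 and F44E5.5 among them.

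**Figure D2:**
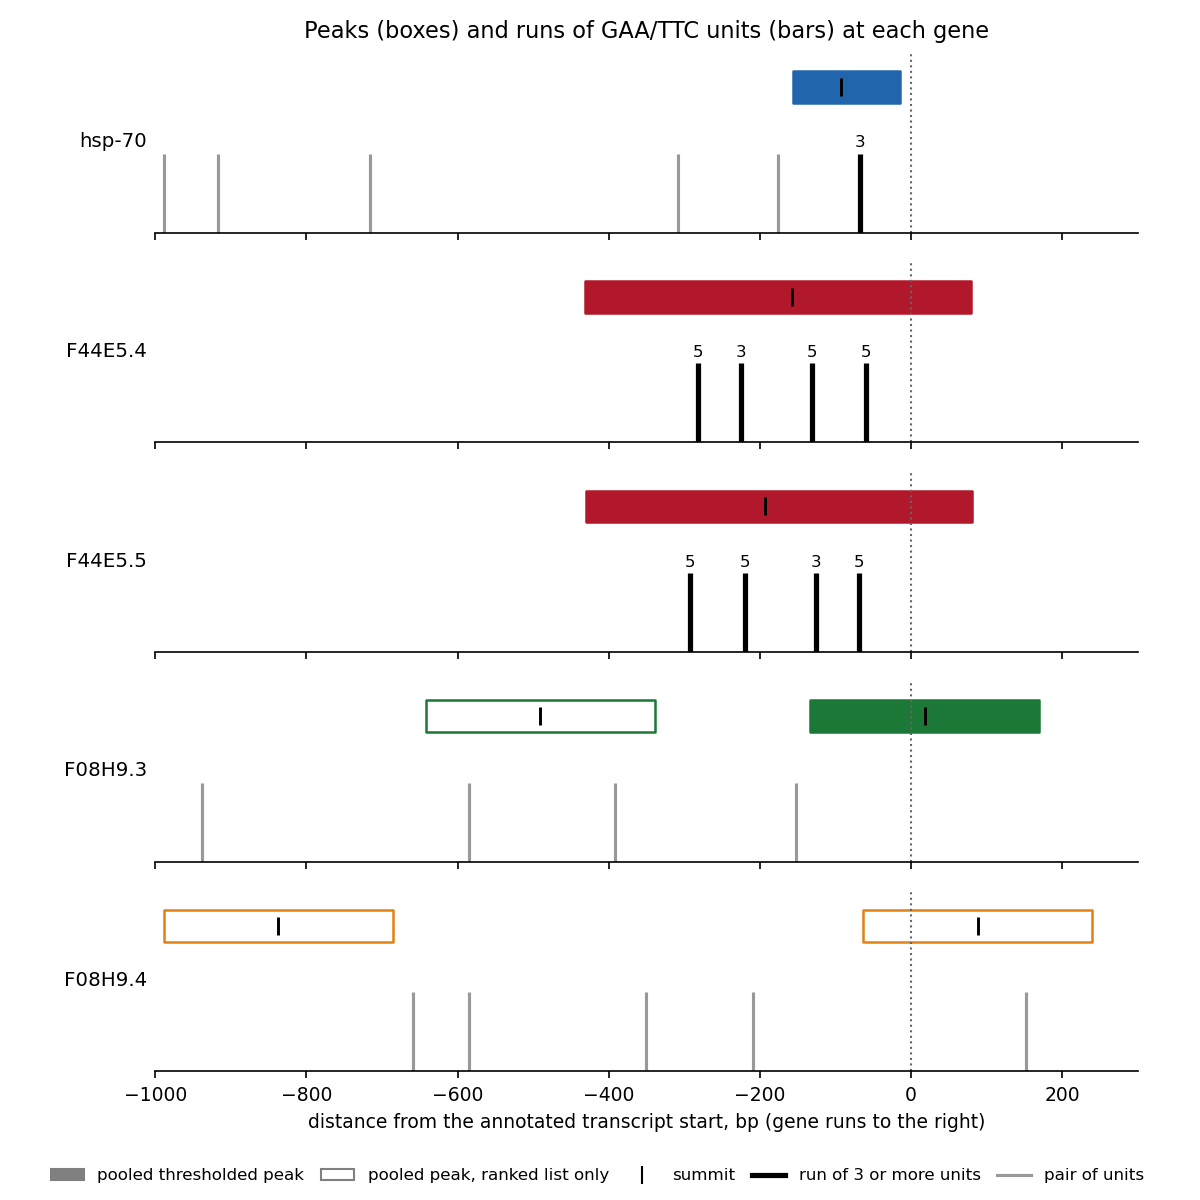
Distance from the annotated transcript start in bp, with each gene drawn to run to the right, for pooled peaks (boxes with summit ticks, filled when in the thresholded list and open when in the ranked list alone) and for runs of GAA and TTC units (black bars with their number of units for 3 or more, grey bars for pairs). For F08H9.4 the outer of 2 annotated starts is drawn. The nearest run of 3 or more units is centred 67, 59 and 69 bp upstream of hsp-70, F44E5.4 and F44E5.5, and the F08H9 genes have pairs only.

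The genes of the F44E5 pair are near-perfect inverted copies, and this bears on how reads can be placed. The left arm chrII:11757147-11759355 and the right arm chrII:11759608-11761816 are exact reverse complements over 2209 bases and hold nearly all of both genes. Closer in, a further pair of arms of 42 bases (chrII:11759357-11759398 and chrII:11759565-11759606) holds runs 1 and 4, and runs 2 and 3 lie in the sequence between. Within F44E5.4 only 40 of the 2156 words of 50 bases, or 1.86%, occur once in the genome, and within F44E5.5 the share is 2.09%. Within the peak the share was 65.0%, and no word there had more than 2 copies. The once-only words around the summit together covered 350 bases, which held all 4 runs. None of the 2000 words to either side of that stretch occurred once. The gene bodies held 0 summits in each of the 8 lists. The sources used here give neither the read length nor how reads with more than 1 placement were treated. The part of repeated sequence in the width of the peak and in the empty gene bodies was not tested.

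**Figure D3:**
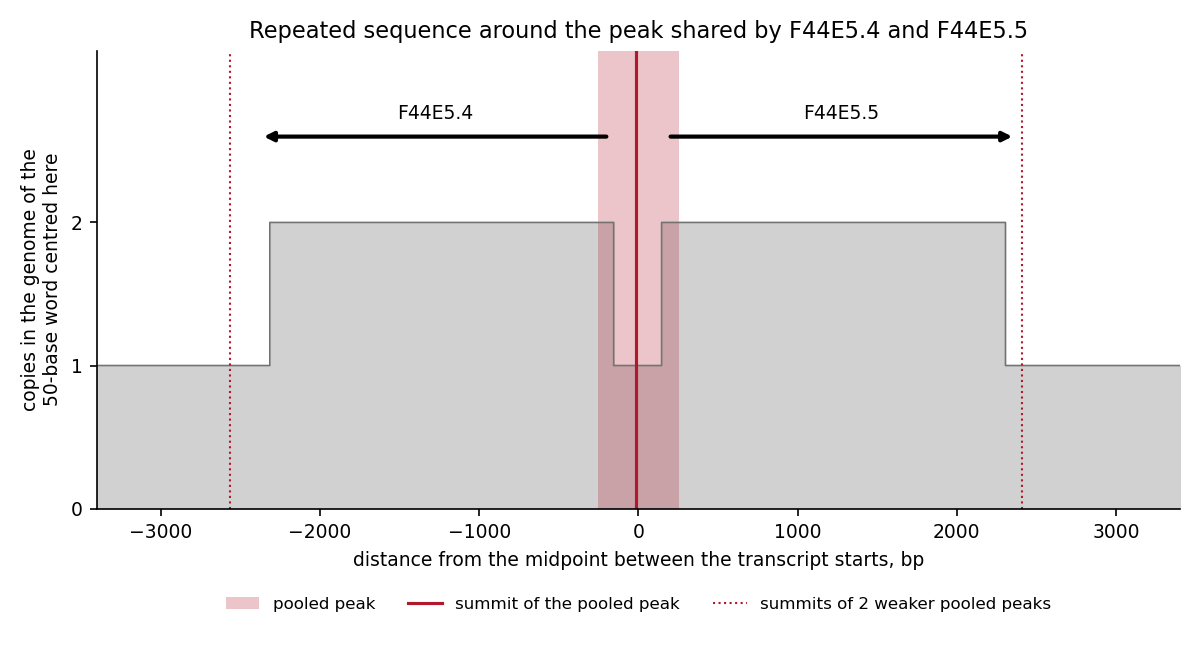
Number of copies in the genome, on both strands, of the 50-base word centred at each position, against the distance in bp from the midpoint between the starts of F44E5.4 and F44E5.5. Arrows are the genes, the shaded band is the pooled peak and its line the summit, and dotted lines are the summits of 2 weaker pooled peaks. The summit stands among 301 neighbouring once-only words, which together cover 350 bases, flanked by arms in which every word has 2 copies.

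Weak pooled peaks lay beyond the outer ends of the repeated arms. Their signals were 67.1 on the F44E5.4 side and 61.5 on the F44E5.5 side. Their summits were 171 bp and 26 bp outside the outermost repeated bases. Both passed the pooled threshold and neither was in the conservative list. They are outside the promoter windows of both genes and are the only other thresholded pooled peaks within 3000 bp of the starts.

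The hsp-70 gene lies on chromosome I at 9320325 to 9322519, on the minus strand, inside the span of uggt-2, a protein-coding gene on the plus strand. The peak spanned 9322534 to 9322675, 142 bp, and its summit at 9322611 lay 92 bp upstream of hsp-70 and in an intron of uggt-2. The promoter window of uggt-2 did not hold the summit. The peak ranked 318 of 2935 pooled peaks and 138 of 1338 promoter peaks. Its rank was 270 of 1217 in replicate 1 and 340 of 1877 in replicate 2. The IDR was 4.03e-05 pooled, 1.19e-05 in replicate 1 and 6.15e-05 in replicate 2. The replicate summits were 27 bp apart, at 119 bp and 92 bp upstream of the start. Every word of 50 bases in the peak and in the gene occurred once in the genome, so the peak stood wholly in sequence that reads of that length can identify.

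Within 100 bp of the hsp-70 summit lay 1 element, a run of exactly 3 units centred 25 bp from the summit and 67 bp upstream of the start. The next units upstream were pairs, at 176.5 and 308.5 bp from the start. If 1 mismatch was allowed in the fixed bases, 4 overlapping elements were counted near the hsp-70 summit and 5 near the F44E5 summit, but elements of that looser kind occur in 64.8% of all promoter windows. Among the 73 pooled promoter peaks with exactly 1 element near the summit, hsp-70 held place 31, and their median signal was 223.9, with quartiles of 97.2 and 532.0. Among the 39 promoter peaks with 5 or more elements the F44E5 peak was the strongest, and their median was 257.2. The dnj-13 peak, with 0 elements and a longest run of 2 units within 100 bp of its summit, reached 6173. The median over the 1210 promoter peaks with no element was 95.9. Whether the number of elements sets the signal was not tested.

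**Figure D4:**
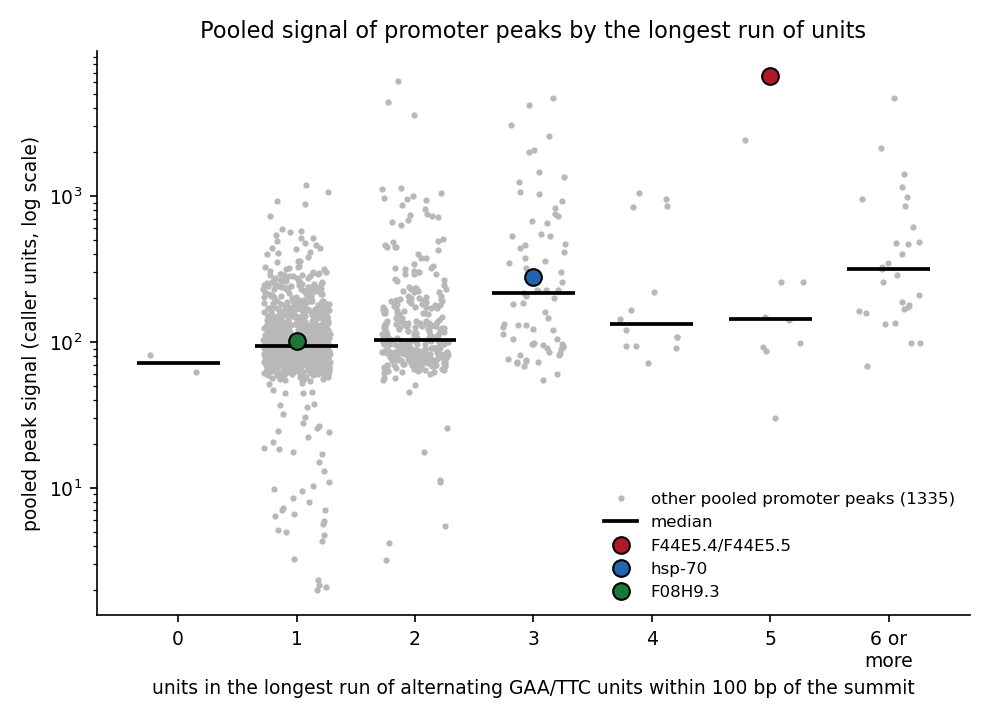
Pooled peak signal in the peak caller's units, on a log axis, against the number of units in the longest run within 100 bp of the summit, for all 1338 pooled promoter peaks, with short bars at the median of each class and points spread sideways for visibility. The F44E5 peak, at 6602, is the highest of 10 peaks whose longest run has 5 units, with a median of 144.5, and hsp-70, at 278.6, lies near the median of 214.8 over 75 peaks with a run of 3.

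The 3 HSP70 genes, at 2 loci, shared an arrangement close to the start. The letters TATAAA, the core of a TATA box, began 31 bp upstream of F44E5.4, 41 bp upstream of F44E5.5 and 45 bp upstream of hsp-70 on the strand of each gene. The centre of the nearest run lay a further 28, 28 and 22 bp upstream. F44E5.4 and F44E5.5 share this sequence through the repeat and are not independent examples. TATAAA within 60 bp upstream was present at 9.46% of coding genes and an element of 3 units within 100 bp at 0.551%. Both were present at 12 coding genes, or 0.0601%. Of these 5 had a pooled promoter peak, namely F44E5.4, F44E5.5, hsp-70, hsp-16.2 and Y53F4B.11, and 3 of the 5 are members. A pooled promoter peak was present at 18.2% of genes with such an element, 4.50% of those with TATAAA and 7.63% of all coding genes. The pairing of TATAAA with an element was chosen after the values were seen. F08H9.4 had TATAAA at 31 bp upstream, without an element, and F08H9.3 had no match in these 60 bp.

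The small heat shock protein genes had weak peaks or none. F08H9.3 lies on chromosome V at 14461947 to 14463338 on the minus strand, and its pooled peak spanned 14463168 to 14463471. The width, 304 bp, is the commonest in the pooled list, where 80.6% of peaks have it. The summit at 14463320 lay 18 bp downstream of the start, in the 5′ UTR. It ranked 1263 of 2935 pooled peaks and 642 of 1338 promoter peaks, near the middle of both. The IDR was 0.000935 pooled and 0.00165 in the conservative analysis. In replicate 1 the IDR was 0.0593, above the threshold of 0.01 that the thresholded lists keep to, and in replicate 2 it was 0.00156. The replicate summits were 42 bp apart. Within 100 bp of the summit there were 0 elements and 0 pairs of units, and none when 1 mismatch was allowed. Among the 1210 promoter peaks with no element the F08H9.3 peak held place 547, and their median signal was 95.9.

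The same summit lies in 2 noncoding genes. The snRNA gene F08H9.10 spans 14463188 to 14463352 on the minus strand, with its start 32 bp upstream of the summit, and the noncoding RNA gene F08H9.14 spans 14463186 to 14463357 on the plus strand. snRNAs are the RNA parts of the spliceosome. Of 129 annotated snRNA genes, 21 had a pooled summit in their body, or 16.3% (Wilson 95% interval 10.9 to 23.6%, counting error only). The share over all genes by this rule is not given here, so the 16.3% cannot be read as a preference for snRNA genes. The signals of the 21 ran from 70.7 to 714.9 with a median of 102.3, and 13 of them were at or above the 101.3 of this peak. Words of 50 bases in F08H9.10 had up to 11 copies in the genome, and 70.6% of those in the peak occurred once. Of words of 36 bases in the peak 59.5% occurred once. Every word of 100 bases in the peak and in F08H9.10 occurred once, so the repetition depends on the read length, which is unknown. Which of the 3 genes the peak belongs to cannot be told apart, and the part of the repeated snRNA sequence was not tested.

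F08H9.4 lies just upstream of F08H9.3, at 14463520 to 14464428 on the same strand, with 2 annotated transcript starts. Its windows held no thresholded peak. The strongest peak there in the pooled ranked list reached 42.8 at an IDR of 0.127. The matching ranked peaks reached 23.9 in replicate 1 and 22.3 in replicate 2, at IDRs of 0.637 and 0.430. Its summit lay 88 bp downstream of the outer start, in the coding sequence of F08H9.4 and the 3′ UTR of srz-97, a chemoreceptor gene. The other pooled ranked peaks in its windows had signals of 18.5 and 8.01. The signal of F08H9.3 was 2.37 times that of F08H9.4 in the pooled list, 1.69 times in replicate 1 and 2.31 times in replicate 2. The nearest units upstream were a pair centred 208.5 bp from the outer start. Pairs of units occur in the 300 bp upstream of 32.0% of coding genes, and the nearest pair of F08H9.3 was centred 152.5 bp upstream.

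The spread between replicates is given beside these levels. Over the 2856 pooled peaks found in both ranked replicate lists, the ratio of replicate 2 to replicate 1 signal had a median of 1.30, and 5% of ratios were below 0.687 and 5% above 2.54. The ratio was 0.816 at the F44E5 pair, 1.08 at hsp-70, 1.28 at F08H9.3 and 0.932 at F08H9.4. All 4 lay within that range. Of the paired peaks, 11.0% had a lower ratio than the F44E5 pair, which with a rank of 1 in replicate 1 and 5 in replicate 2 was relatively stronger in replicate 1. The ratio of the F44E5 pair to hsp-70 was 20.1 or more in each list. That of hsp-70 to F08H9.3 was 2.75 or more, and that of F08H9.3 to F08H9.4 was 1.69 to 2.37. These ratios compare different peaks within a list, so the spread of the same peak between lists is not a limit for them. The order of the 4 loci was the same in both replicates, and whether they differ by more than the replicates vary was not tested. Over the 1282 paired peaks with a signal of 100 or more, the upper limit of the spread was 2.26. These limits include the overall offset between the replicate lists.

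**Figure D5:**
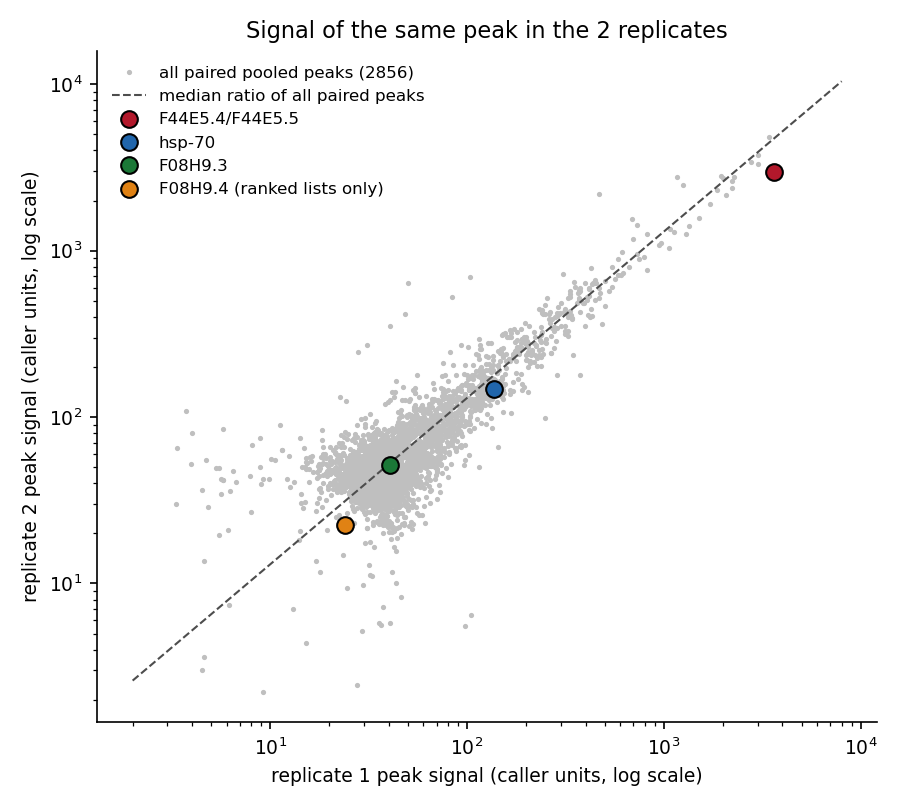
Signal of the same peak in replicate 1 (x axis) and replicate 2 (y axis), both in the peak caller's units on log axes, for 2856 paired pooled peaks (grey) and the 4 loci (coloured), with a dashed line at the median ratio of 1.30. The F44E5 pair lies below the line with a ratio of 0.816, and F08H9.3 lies on it with 1.28.

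In the order of pooled promoter peaks the loci stood beside genes of other kinds. Next to hsp-70 were the peaks of cogc-2 and klp-18 at 282.9, of vig-1 at 282.7, of lin-53 and nra-2 at 275.9 and of gpd-1 at 274.3, and each of these had 0 elements near the summit. Next to F08H9.3 were C26D10.4 and hel-1 at 101.6, W02D7.6 at 101.3, F38E11.9 at 101.3 and K07H8.9 at 101.1, also with 0 elements. The pooled signals of these neighbours were close to that of the named gene, and the differences were not tested. Likeness here is in pooled signal alone.

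Other chaperone genes give the scale. Of 9 other genes listed as the HSP70 superfamily, 5 had a pooled promoter peak, with a median of 345.5. The list includes F11F1.1, which had none and which RefSeq describes as a DUF148 domain-containing protein. The strongest were hsp-110, a nucleotide exchange factor of HSP70, at 4697 with 1992 and 2720 in the replicates, and hsp-1 at 4387 with 2076 and 2161. The mitochondrial HSP70 gene hsp-6 followed at 345.5 with 155.7 and 182.5. The signal of the constitutive hsp-1 was 15.1 times that of hsp-70 in replicate 1 and 14.6 times in replicate 2. That of the F44E5 pair was 1.75 and 1.37 times that of hsp-1. Of 8 HSP70 cochaperone genes 6 had a peak, with a median of 1100. The J-domain protein genes dnj-13 and dnj-12 were at 6173 and 1996 and the BAG-domain gene unc-23 at 1135. Among 6 loci of the hsp-16 family, hsp-16.2 and hsp-16.41 shared a peak of 358.9, with 191.2 and 158.6 in the replicates. It had 1 element of 3 units within 100 bp of the summit, as at hsp-70. A different element lay farther from the summit, within 100 bp upstream of the hsp-16.2 start. The other 4 hsp-16 loci had no pooled promoter peak. RefSeq gives these loci shared products in pairs, and the uniqueness of their sequence was not examined, so they are not shown to be unbound.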

How the data were processed

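HSF-1 binding was measured by chromatin immunoprecipitation and sequencing in 2 biological replicates, with chromatin fragmented by sonication, per the labels. For each replicate and for both together there are thresholded and ranked lists on ce11, 8 in all, per the deposited file listings. The sources used here give no aligner, peak caller or number of reads, so depth is unknown. The control was not analysed here. The signal of each peak, deposited by the authors, is the caller's value and was compared as ratios within a list. In ranked lists the IDR stands as its −log10, as deposited by the authors, and was converted back; 1e-05 is the lowest value. The score, which the authors deposited, was read and no result rests on it. There were 16 columns of values of unnamed single peak sets, which were not used.

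Genes came from Ensembl release 115, sequence, symbols and products from RefSeq WBcel235, the same assembly. A coding gene was called when a summit lay in its promoter window. A replicate value is that of the replicate's own ranked peak overlapping the pooled peak by at least 1 bp with the nearest summit. Elements were 3 alternating GAA and TTC units with 2 bases between neighbours, without mismatch, on both strands, within 100 bp of the summit, and overlapping elements were counted separately. Coding sequences were aligned globally with Biopython 1.88, and identity is the share of all alignment positions, gaps included. Words of 36, 50 and 100 bases were counted on both strands of the nuclear and mitochondrial genome. The computations used Python 3.11.15, numpy 2.4.6, pandas 2.3.3 and scipy 1.17.1, and the element search was tested on simulated sequence. No test was run, since there is 1 group.

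The members, the comparison lists and the alternatives were chosen with earlier results of these data known. The genes named are the 5 members, genes holding a summit of their peaks, up to 3 genes by signal of each comparison list, and the genes of the 2 pooled promoter peaks to either side of each member peak in order of signal. Y53F4B.11, F11F1.1 and hsp-16.1 fall outside that rule and were named after their values were seen.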

Additional observations from a re-analysis of the deposited data

How the results depend on the processing

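The count of 4 of the 5 genes with a promoter peak was 4 at an IDR of 0.001 or less, in the conservative list, with narrower or wider windows and with the first start alone. It was 3 when each summit went to the nearest start only, which drops F44E5.5. Leaving out 1 replicate gave 3 to 4 genes and 3.83 to 5.29% of coding genes, against 7.63%, and F08H9.3 is the gene lost without replicate 2. The share of coding genes was 4.15% at the stricter IDR and 10.4% with 2000 bp upstream. The 6 elements at member peaks became 11 within 200 bp of the summit, 11 in the whole interval, 11 for pairs of units, 9 with 1 mismatch and 4 within 50 bp. The count at F08H9.3 was 0 in each. The median replicate ratio of 1.08 was 0.947 in the thresholded lists, which lack F08H9.3 in replicate 1, and the ratio of each other peak did not move. A total of 2 member peaks were found in both replicate lists under each overlap rule. The share of all pooled peaks found in both is not given here, so this count is a description only. No paired analysis was possible because there is 1 group. Depth is unknown, so a weak site such as F08H9.4 is not shown to be unbound.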
